A study of Mus musculus with 6 samples.

Results

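The clustered protocadherins were the 57 protein-coding genes on mouse chromosome 18 whose symbols begin with Pcdha, Pcdhb, Pcdhga, Pcdhgb or Pcdhgc, out of 19666 protein-coding genes for which a 5′ end could be placed. The rule for membership used the symbol and the chromosome and no measured value. The Pcdha cluster held 14 of them, the Pcdhb cluster 22 and the Pcdhg cluster 21. Pcdhgb8, annotated as a transcribed pseudogene, was not a member.

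Protocadherins are cadherin-like adhesion proteins that bind the same isoform on a facing membrane. In neurons, where they are best known, each cell uses a small choice of isoforms and so carries a surface identity that lets it tell its own branches from those of its neighbours. In the Pcdha and Pcdhg clusters each variable first exon has its own promoter and encodes the extracellular, transmembrane and proximal cytoplasmic parts, and it is spliced to constant exons that the whole cluster shares. The Pcdhb genes have no constant exons. The last genes of the Pcdha and Pcdhg clusters, called C-type (Pcdhac1, Pcdhac2, Pcdhgc3, Pcdhgc4 and Pcdhgc5), are used more uniformly among neurons than the other isoforms. The zinc finger protein CTCF and the cohesin ring bring promoters and distal enhancers of the clusters together, and in the Pcdha cluster CTCF is known to bind at the promoters of the alternate isoforms and again within their exons.

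The libraries came from ATAC-seq, in which the transposase Tn5 inserts adapters into accessible chromatin. The 6 libraries were made from spermatogonia, the dividing germ cells that found spermatogenesis, of 129S1/Sv mice at postnatal day (Pnd) 5, each from 50000 cells enriched by differential plating, a step that removes many but not all somatic cells. S7KO libraries (replicates 1, 2 and 4 by their titles) came from Sirt7-/- mice, which lack the nuclear deacetylase SIRT7, and WT libraries (replicates 1, 2 and 4) from wild-type mice of the same strain. The study names no treatment and no transgene for these libraries. Germ cells were not sorted, and the labels do not tie a library to an animal, although the study describes the ATAC-seq replicates as independent biological ones.

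Each library was represented by a list of peaks, with 119786, 127985 and 133299 peaks in the S7KO libraries (replicates 1, 2 and 4) and 118881, 105728 and 133663 in the WT libraries (replicates 1, 2 and 4). WT replicate 2 had the shortest list and the smallest covered length, 81.5 Mb against 100 to 108 Mb in the other 5. Sequencing depth was unknown from the lists, so a missing peak means only that none was called at that library's depth. The 5′ end of Sirt7 itself had a peak in every list, which says nothing of the labels, since a deletion inside the gene need not remove its promoter. Of 15 spermatogonial and germ cell markers, 14 had a peak at the 5′ end in all 6 libraries, among them Zbtb16, which encodes PLZF, and Nanos2 had none. Markers of other cells also had peaks in all 6 libraries, 7 of 10 for Sertoli cells, 4 of 7 for Leydig cells, 7 of 7 for peritubular myoid and stromal cells, 3 of 4 for endothelium, 1 of 4 for macrophages and 5 of 8 for neurons. Among these markers of other cells, Gata1, Inhba, Rhox5, Hsd3b1, Insl3, Pecam1, Ptprc, Adgre1, Rbfox3 and Dcx had no peak in any library. Others of the same lists, such as Sox9, Kdr, Cd68, Cyp11a1, Syt1 and Map2, had a peak in all 6. Star and Elavl3 were missed in WT replicate 2 alone, and Csf1r in WT replicate 1 alone. A peak at a promoter is no measure of transcription, and the share of other testis cells was not measured.

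Most clustered protocadherin promoters were called as accessible in spermatogonia of both genotypes. A peak lay within 1 kb of the 5′ end of 37 of the 57 genes in all 6 libraries, of 13 genes in 1 to 5 libraries and of 7 genes in no library. Among all protein-coding genes 72.3% were called in all 6 libraries, 4.14% in some and 23.6% in none. The clusters differed from each other. In the Pcdhg cluster 19 of 21 genes were called in every library, in the Pcdha cluster 8 of 14 and in the Pcdhb cluster 10 of 22.

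The peaks were weak compared with those of other promoters. Within each list peaks were ranked by the −log10 q-value that the peak caller gave them, and a rank of 10% means that 10% of the list's peaks were as strong or stronger. The median rank of a called 5′ end over all protein-coding genes was 7.23% to 9.34%, depending on the library. For Pcdhg genes it was 38.7% to 56.6%, for Pcdha genes 60.1% to 69.8% and for Pcdhb genes 64.5% to 77.6%. Ranks were used only inside a list and do not compare accessibility between libraries.

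**Figure D1:**
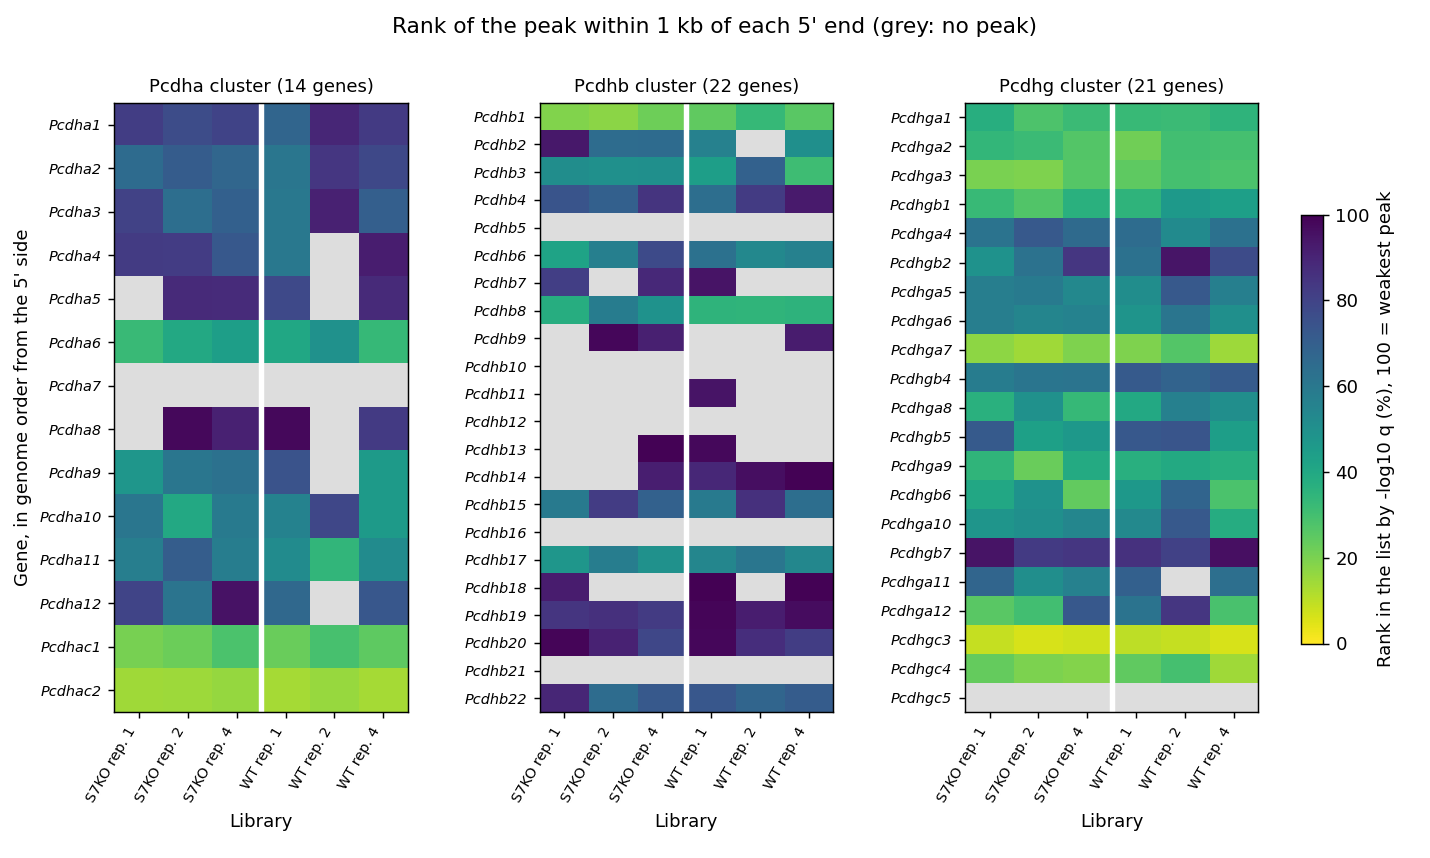
Rank of the peak within 1 kb of each gene's 5′ end (colour, in percent of the library's list by −log10 q, 100 being the weakest) for the 57 genes in genome order (rows) and the 6 libraries (columns, S7KO left of the white line and WT right of it), with grey where no peak was called. The strongest gene of the Pcdha and of the Pcdhg panel was a C-type gene near its foot, Pcdhac2 with 14.6% and Pcdhgc3 with 7.99% as medians over the 6 libraries, whereas grey and dark cells were most frequent in the Pcdhb panel.

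The strongest promoter peaks of the Pcdha and Pcdhg clusters were at C-type genes. Pcdhgc3, which of all the clustered protocadherins is the most widely used outside the nervous system, had ranks of 8.61%, 6.0% and 7.36% in S7KO and of 10%, 8.80% and 6.18% in WT, each in the order of replicates 1, 2 and 4, as in the rest of the text. The ranges of the genotypes overlapped, and its median of 7.99% was the best of any member. Its peak was 2664 to 2771 bp wide and reached from about 0.4 kb upstream of the 5′ end to 2240 to 2355 bp downstream, nearly the length of its first exon (2568 bp in GENCODE).

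Pcdhac2, the last gene of the Pcdha cluster, ranked at 14.4%, 14.8% and 16% in S7KO and at 13.5%, 15.3% and 13.3% in WT. Pcdhac1 ranked at 20.6%, 22.3% and 28.3% in S7KO and at 22.9%, 29.1% and 24.9% in WT. Both genes were called in all 6 libraries, with overlapping genotypes. Pcdhgc4 gave 23.8%, 19.6% and 18.7% in S7KO and 24.4%, 29.3% and 14.3% in WT. Its median of 21.7% came after Pcdhgc3 and the alternate gene Pcdhga7 (18.1%) in the Pcdhg cluster.

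Pcdhgc5, the last gene of the Pcdhg cluster, was the exception among the C-type genes. No library had a peak within 1 kb of its 5′ end (chr18:37819546 in GRCm38, plus strand). A region called in all 6 libraries instead began 2526 bp downstream (chr18:37822072-37823132), with ranks of 9.41%, 13.3% and 16.9% in S7KO and 15.8%, 18.5% and 15.2% in WT. The first exon of Pcdhgc5 in GENCODE is 2622 bp long, so the region began near that exon's end and lay mostly in the intron that follows.

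The alternate Pcdha isoforms, Pcdha1 to Pcdha12, had weaker 5′ peaks, with a median of 63.1% over the 6 of these 12 genes that were called in every library against 19.3% for Pcdhac1 and Pcdhac2. Pcdha6 (median 40.0%) was the strongest of the 6 and Pcdha1, the first gene of the cluster, was the weakest. Pcdha1 ranked at 81.8%, 76.7% and 79.8% in S7KO and at 67.4%, 89.1% and 83% in WT. Its ranks spread more within WT than between the genotypes, but 67.4% was the rank of a peak that reached 2172 bp past the 5′ end. Wide peaks of this kind also entered the median of 63.1%, in all 6 libraries for Pcdha2. These ranks are therefore not of promoters alone.

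Of the other alternate Pcdha genes, Pcdha4, Pcdha9 and Pcdha12 were missed in WT replicate 2 alone. Pcdha4 ranked at 60% to 91.9% where it was called, Pcdha9 at 45.7% to 74.5% and Pcdha12 at 61.7% to 95.2%. The best rank of each was that of a wide peak, which ended 2501, 2474 and 2293 bp past the 5′ end. These peaks were in WT replicate 1, WT replicate 4 and S7KO replicate 2. Pcdha5 (78.1% to 88.1%) and Pcdha8 (82.9% to 98%) were missed in S7KO replicate 1 and WT replicate 2. Pcdha7 had no 5′ peak in any library. Every gene of the cluster with an incomplete call thus lacked its peak in the library with the shortest list.

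A second accessible site lay inside the first exon of the alternate Pcdha genes. Averaged over the 6 libraries, the share of the 14 Pcdha genes covered by a peak was 79.8% at 100 bp past the 5′ end, dropped to 27.4% at 1550 bp and rose again to 85.7% at 1950 bp, with 71.4% to 92.9% in single libraries. The first exons of these genes are 2346 to 3028 bp long (median 2490 bp), so by length the site falls in their downstream part. The highest coverage in the stretch from 1.5 to 3 kb downstream was 15.9% in the Pcdhb cluster and 19.8% in the Pcdhg cluster, both at 2250 bp. Over all protein-coding genes it was 14.3%, at the near edge of that stretch (1500 bp), and 8.48% at 2000 bp. The window of 1.5 to 2.5 kb downstream used for the counts that follow was set after this profile had been seen, so the counts are descriptions without a test.

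**Figure D2:**
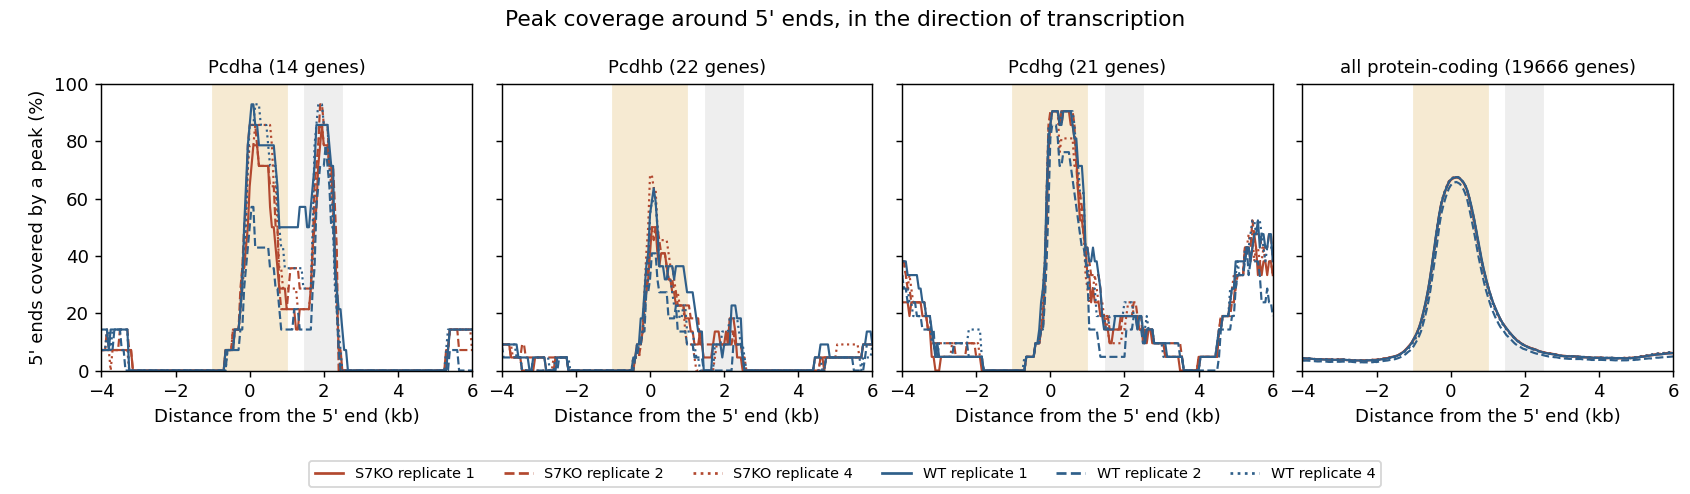
Percent of genes covered by a peak (vertical axis) at each distance from the 5′ end in the direction of transcription (horizontal axis, kb), with a line per library, S7KO in red and WT in blue, for the 3 clusters and for all 19666 protein-coding genes. The beige band marks the window of 1 kb on each side of the 5′ end and the grey band 1.5 to 2.5 kb downstream, where a second maximum stands in the Pcdha panel (85.7% at 1950 bp) and none of that height in the others.

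A peak overlapped the downstream window in 12, 13 and 12 of the 14 Pcdha genes in S7KO replicates 1, 2 and 4 and in 13, 12 and 13 in WT replicates 1, 2 and 4. The corresponding share of all protein-coding genes was 19.5%, 19.6% and 19.7% in S7KO and 19.3%, 17.1% and 19.5% in WT. In the mirror window upstream no Pcdha gene had a peak in any library, against 9.48%, 9.55% and 9.73% of all genes in S7KO and 9.31%, 7.90% and 9.46% in WT. Pcdhb genes gave 6, 3 and 4 of 22 in S7KO and 6, 2 and 5 in WT, and Pcdhg genes gave 5, 7 and 7 of 21 in S7KO and 6, 4 and 6 in WT. Some of these were promoter peaks that ended just inside the window. Examples are Pcdhgb5 in S7KO replicate 1 (1555 bp), Pcdhgb7 in S7KO replicate 2 (1593 bp) and, among Pcdha genes, Pcdhac2 in WT replicate 1 (1514 bp). A downstream peak was called in all 6 libraries for 11 Pcdha, 2 Pcdhb and 4 Pcdhg genes, against 15.3% of all protein-coding genes.

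The downstream Pcdha peaks were mostly separate from the promoter peaks. They were separate in 10, 11 and 9 genes in S7KO and in 6, 11 and 9 in WT. A peak that spanned both windows was called in 2, 2 and 3 genes in S7KO and 7, 1 and 4 in WT. The 7 genes of WT replicate 1 include Pcdhac2, whose peak ended at 1514 bp, short of the downstream site. WT replicate 1, with the most spanning peaks, and WT replicate 2, with the fewest, were of the same genotype. The separate peaks began at a median of 1688 to 1763 bp and ended at 2266 to 2356 bp past the 5′ end in the 6 libraries. For single genes the start varied more, as for Pcdha5, whose separate downstream peak began at 1318 bp in S7KO replicate 1 and at 1856 bp in WT replicate 2 and ended at 2347 and 2405 bp. Where a gene had both peaks, the downstream peak ranked better than the 5′ peak in 6 of 8, 7 of 10 and 5 of 8 genes in S7KO and in 4 of 5, 2 of 5 and 4 of 8 in WT.

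Pcdha7 had the downstream site without the promoter site. Its downstream peak ranked at 73.8%, 55.2% and 61.0% in S7KO and at 47.9%, 77.3% and 61.2% in WT. It was thus called in all 6 libraries and the groups overlapped. The 5′ end of another annotated gene, Gm36858, lies within 1 kb of this downstream region. Pcdha8 had a downstream peak in 4 libraries and the other alternate genes in all 6. Of the C-type genes of this cluster, Pcdhac1 had a downstream peak in 4 libraries (67.2% to 86.5%), as many as Pcdha8. Pcdhac2 had a peak in the window in 1 library, where its promoter peak ended at 1514 bp.

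The Pcdhb genes, each of which is a complete protein on a single exon, were the least often called. Pcdhb1, the first gene of the cluster, stood apart from the other Pcdhb genes with the best rank, at 19.1%, 17.5% and 22% in S7KO and 24.5%, 33.1% and 25.4% in WT. The S7KO ranks were all below the WT ranks, but a rank belongs to its own list and no test was made of it. Pcdhb19 was the weakest gene called in all 6 libraries, at 84.6%, 86.1% and 82.8% in S7KO and 98.5%, 91.8% and 96.7% in WT, again with the S7KO ranks lower. Pcdhb22, the last gene, ranked at 89.1%, 64.5% and 72.1% in S7KO and 72.9%, 67.5% and 70.8% in WT, and these overlapped.

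The Pcdhb cluster had 5 genes called in no library and 7 called in some. The 6 adjacent genes from Pcdhb9 to Pcdhb14 were among them, and the others lay between fully called genes. Whether such calls group along the chromosome was not tested. Pcdhb9 was called in 3 libraries (S7KO replicates 2 and 4 and WT replicate 4, ranks 91.1% to 98.1%), Pcdhb11 in WT replicate 1 alone (94.9%) and Pcdhb13 in S7KO replicate 4 and WT replicate 1 (99.6% and 97.8%). Pcdhb14 was called in S7KO replicate 4 and the 3 WT libraries (88.7% to 99.6%). All of these peaks were near the weak end of their lists, and Pcdhb10 and Pcdhb12 had none.

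Elsewhere in the cluster, Pcdhb2 was missed in WT replicate 2 alone (50.3% to 93.6% elsewhere), Pcdhb7 was called in S7KO replicates 1 and 4 and WT replicate 1 (81.6% to 94.7%), and Pcdhb18 in S7KO replicate 1 and WT replicates 1 and 4 (92.3% to 99.9%). Pcdhb5, Pcdhb10, Pcdhb12, Pcdhb16 and Pcdhb21 had no 5′ peak in any library. Some of these genes had a peak further into the exon, as Pcdha7 did. Pcdhb21 had a downstream peak in all 6 libraries (61.7% to 87.0%), Pcdhb10 and Pcdhb12 in 4 and Pcdhb5 in 2, and Pcdhb16 had none. Pcdhb7 also had a downstream peak in all 6 libraries (83% to 97.8%).

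The Pcdhg cluster interleaves Pcdhga and Pcdhgb genes, which are named for sequence type. All 11 Pcdhga genes other than Pcdhga11 and all 6 Pcdhgb genes were called in every library. The Pcdhga genes had the better ranks, with a median of 44.5% over the 11 genes (18.1% for Pcdhga7 to 63.6% for Pcdhga4) against 62.0% over the 6 Pcdhgb genes (35.9% for Pcdhgb1 to 84.8% for Pcdhgb7). The 2 ranges overlapped.

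Pcdhga1, the first gene of the cluster, ranked at 37.3%, 27.9% and 31.9% in S7KO and at 32.5%, 31.9% and 35.0% in WT. Pcdhgb7, the weakest gene, ranked at 94.8%, 82.9% and 84.0% in S7KO and at 85.6%, 80.6% and 96.0% in WT. Neither separated the genotypes. Pcdhga11 was missed in WT replicate 2 alone and ranked at 67.3%, 50.4% and 56.2% in S7KO and at 69.3% and 63.6% in the other 2 WT libraries. Pcdhga10, Pcdhga11, Pcdhga12 and Pcdhgc3 had a peak in the downstream window in all 6 libraries, and they lie next to each other among the last members of the cluster, with Pcdhgb7 and the pseudogene Pcdhgb8 between them.

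The next question was whether loss of SIRT7 changed how many of these promoters were called. No difference was detectable. Of the 57 genes, 44, 45 and 48 had a 5′ peak in S7KO replicates 1, 2 and 4 and 49, 38 and 47 in WT replicates 1, 2 and 4. The S7KO mean was 45.7 ± 2.08 and the WT mean 44.7 ± 5.86 (SD, n = 3), a difference of 1 gene (exact two-sided permutation test, p = 0.900, adjusted p = 1.0 over 6 tests). The highest and the lowest count were both WT. Across all protein-coding genes 74.3%, 74.8% and 75.0% were called in S7KO and 74.4%, 73.2% and 74.9% in WT.

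Within clusters the groups overlapped as well. Pcdha genes were called in 11, 13 and 13 cases in S7KO and 13, 8 and 13 in WT, with means of 12.3 ± 1.15 and 11.3 ± 2.89 (SD, n = 3, exact permutation p = 1.0). Pcdhb genes were called in 13, 12 and 15 cases in S7KO and 16, 11 and 14 in WT, with means of 13.3 ± 1.53 and 13.7 ± 2.52 (SD, n = 3, exact permutation p = 1.0). For the Pcdhg cluster the counts were 20, 20 and 20 in S7KO and 20, 19 and 20 in WT (20 ± 0 and 19.7 ± 0.577, SD, n = 3, exact permutation p = 1.0). With 3 libraries a group, the smallest p that this test can give is 0.1, so none of these comparisons could have passed the usual threshold.

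WT replicate 2 gave the lowest count in each cluster, and single libraries set the sign of the differences. Without WT replicate 2, the difference over the 57 genes was −2.33 (S7KO minus WT) in place of 1, in the Pcdha cluster −0.667 in place of 1 and in the Pcdhg cluster 0 in place of 0.333. Without S7KO replicate 4 the difference over the 57 genes was −0.167. In the Pcdhb cluster it turned from −0.333 to 0.333 without S7KO replicate 2 and to 0.833 without WT replicate 1.

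**Figure D3:**
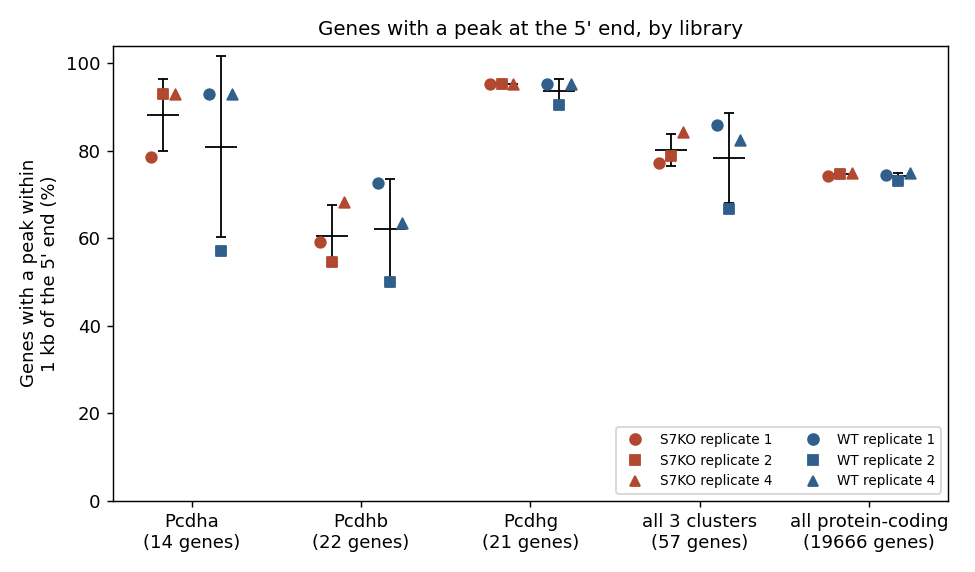
Percent of genes with a peak within 1 kb of the 5′ end (vertical axis) in each cluster, in the 3 clusters together and in all protein-coding genes (horizontal axis), with a point per library (red S7KO, blue WT, circle, square and triangle for replicates 1, 2 and 4) and the mean ± SD of 3 libraries in black. WT replicate 2, the blue square, is the lowest WT point in every column, and the red and blue points overlap in every cluster.

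No gene showed the pattern that would separate the genotypes fully. None of the 57 was called in all 3 S7KO libraries and no WT library, against 0.0356% of all protein-coding genes, and none was called the other way round, against 0%. More S7KO than WT libraries had the peak for 7 members, against 2.30% of all genes. For 5 of these 7 (Pcdha4, Pcdha9, Pcdha12, Pcdhb2 and Pcdhga11) the only library without the peak was WT replicate 2, and the others were Pcdhb7 and Pcdhb9. More WT than S7KO libraries had it for 3 members (Pcdhb11, Pcdhb14 and Pcdhb18), against 1.02% of all genes. Members with partial calls were more frequent than the background in both directions. Their median ranks, over the libraries where they were called, ran from 60.9% for Pcdha9 to 99.6% for Pcdhb18.

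The clusters were next viewed as whole domains with 50 kb on each side (GRCm38). The Pcdha cluster spans chr18:36930285-37188897, the Pcdhb cluster chr18:37264998-37521419 and the Pcdhg cluster chr18:37661775-37841873. Peaks covered 12.2% to 15.6% of the Pcdhg domain, 4.30% to 8.04% of the Pcdha domain and 2.37% to 4.57% of the Pcdhb domain, depending on the library. The Pcdhg cluster thus had the densest accessible chromatin in each library, and the lowest share in all 3 domains was that of WT replicate 2. The flanks include other genes, Taf7, Slc25a2 and part of Diaph1 beside the Pcdhg cluster.

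The 3 domains together held 82, 81 and 86 peaks in S7KO and 84, 71 and 85 in WT, with means of 83 ± 2.65 and 80.0 ± 7.81 (SD, n = 3, exact two-sided permutation p = 0.800, adjusted p = 1.0). Peaks covered 74.2, 81.1 and 77.2 kb in S7KO and 87.7, 57.2 and 82.1 kb in WT, with means of 77.5 ± 3.46 and 75.7 ± 16.2 kb (SD, n = 3, exact two-sided permutation p = 1.0, adjusted p = 1.0). The WT values enclosed the S7KO values in covered length. Without WT replicate 2 both differences changed sign, to −1.50 peaks and −7.37 kb.

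**Figure D4:**
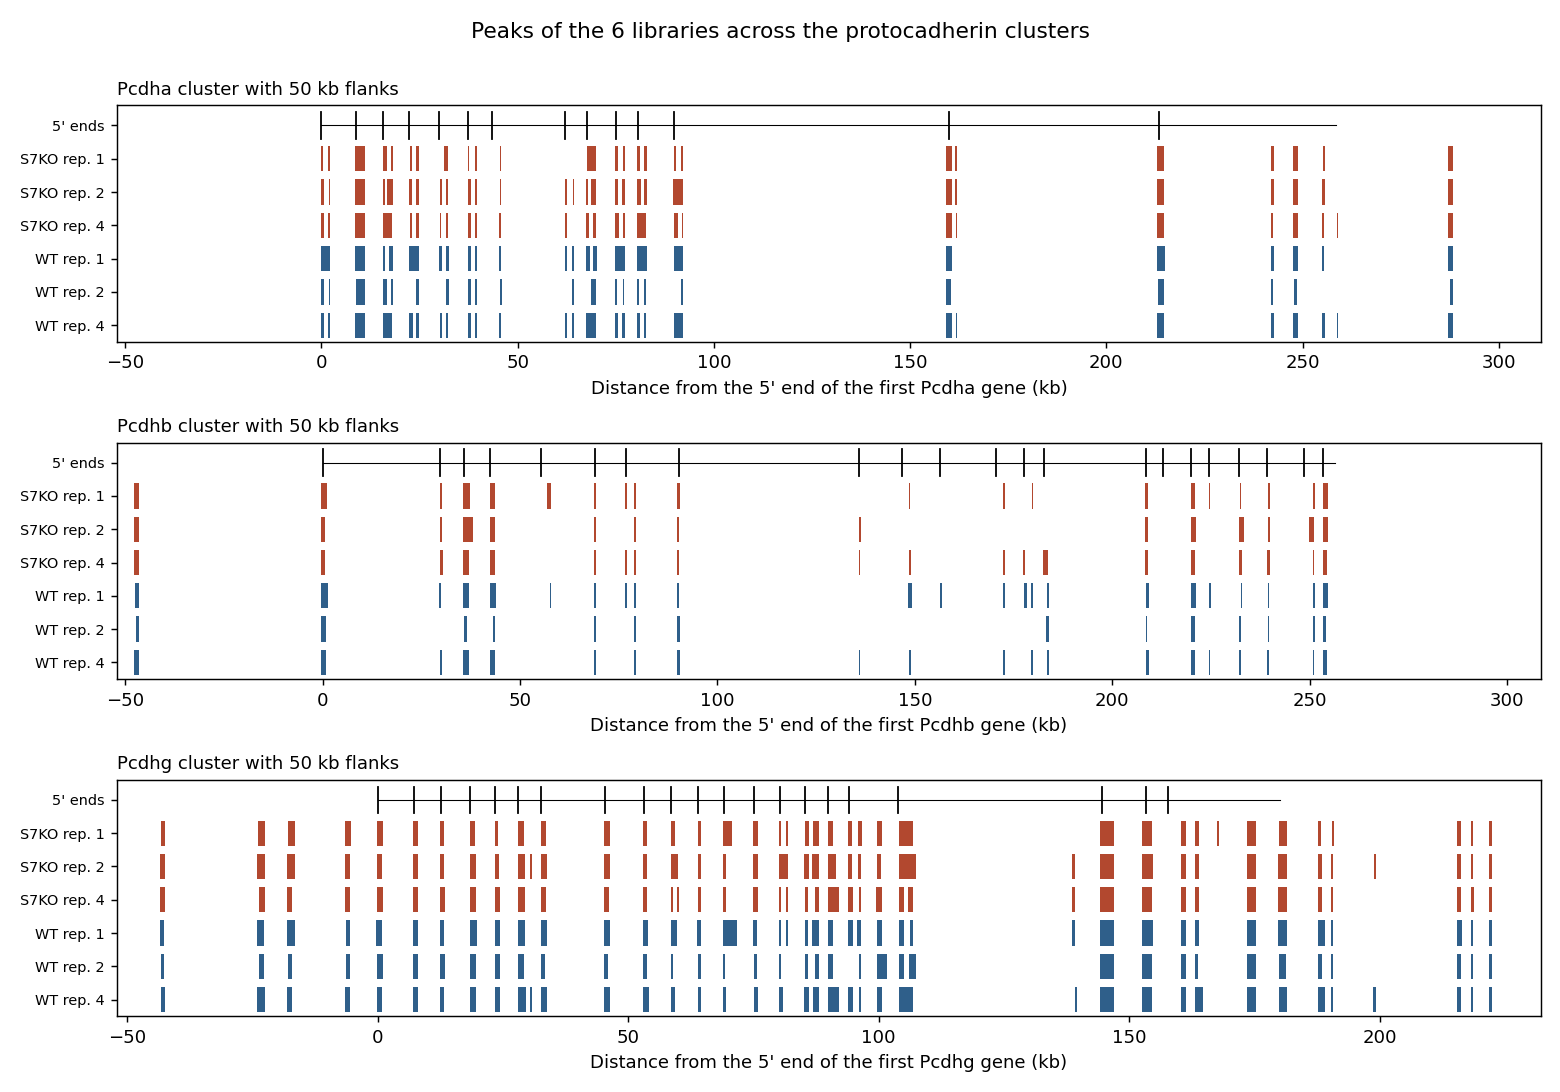
Peaks (coloured blocks, to scale) of the 3 S7KO libraries (red rows) and 3 WT libraries (blue rows) across each cluster with 50 kb flanks, by distance in kb from the 5′ end of the cluster's first gene, with vertical black ticks at the members' 5′ ends and a line along the cluster. Blocks follow the ticks in the Pcdha and Pcdhg clusters, with paired blocks at most Pcdha ticks, and are missing at several ticks in the middle of the Pcdhb cluster.

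Peaks of the 6 libraries merged into 86 regions in these domains, of which 64 were called in all 6 libraries, against 57.1% of the 158725 merged regions of the genome. None of the 86 was called in all 3 libraries of one genotype and in no library of the other (genome-wide 0.416% for S7KO and 0.0743% for WT). By place, 50 regions lay within 1 kb of a member's 5′ end, 15 at 1 to 3 kb downstream of one, 9 elsewhere in a cluster and 12 in a flank. Among those called in all 6 libraries, the median rank was 51.5% for the 40 at 5′ ends, 51.5% for the 8 downstream of them, 16.2% for the 6 elsewhere in a cluster and 15.7% for the 10 in flanks. The last 2 classes include regions at the 5′ ends of other genes, Pcdhgb8, Taf7 and Slc25a2. Merging joined the promoter and downstream peaks of several Pcdha genes into a single region at the 5′ end, which took the better rank. The Pcdha4 region thus ranked at 39.4% in WT replicate 2, where Pcdha4 had no peak within 1 kb of its 5′ end. The equal medians of 51.5% therefore do not compare promoter sites with downstream sites. The Pcdhb cluster itself had no region of the class elsewhere in the cluster.

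In the Pcdha cluster, 2 strong regions lay between the variable exon of Pcdhac2 and the cluster's end. The region at chr18:37172198-37172920, which began 28520 bp past the 5′ end of Pcdhac2, ranked at 12.9%, 11.8% and 11.1% in S7KO and 14.3%, 14.4% and 10.7% in WT. The wider region at chr18:37177804-37179134 (1331 bp), 34126 bp past that 5′ end, ranked at 14%, 12.6% and 9.81% in S7KO and 10.3%, 12.5% and 12.2% in WT. Both lie by coordinate inside the Pcdha genes, past their variable exons, and both overlapped between the genotypes.

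Between the Pcdha and Pcdhb clusters, the region at chr18:37217254-37218609 (1356 bp) was the widest region away from 5′ ends called in all 6 libraries for both domains. It lies in no annotated protein-coding gene, 46389 bp upstream of Pcdhb1. It ranked at 10.7%, 9.88% and 8.88% in S7KO and at 14.2%, 15.3% and 15.6% in WT, so the 3 S7KO ranks were all lower. That value was not tested and is a rank within each list.

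At the Pcdhg cluster, the widest region away from members' 5′ ends (chr18:37761316-37763360, 2045 bp) lay over the 5′ end of the pseudogene Pcdhgb8 and ranked at 20.6% to 44.8%. A stronger region was called 5438 bp upstream of Pcdhga1 (chr18:37655301-37656337), at 10.7%, 8.68% and 8.01% in S7KO and 7.60%, 9.58% and 8.48% in WT. Another covered the shared 3′ end of the Pcdhg genes (chr18:37841526-37843343), at 8.43%, 12.4% and 8.52% in S7KO and 12.5%, 13.7% and 10.8% in WT. Each of these regions was named after its values had been seen, except the widest ones. The strongest region of the 3 domains (3.05% to 5.43%) was at the 5′ end of Taf7, a gene of the general transcription machinery that lies between the Pcdhb and Pcdhg clusters.

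For genes whose products act on the clusters, calls at their own 5′ ends can be read beside the 72.3% of all protein-coding genes that were called in all 6 libraries, and no gene of these lists was called in all libraries of one genotype and none of the other. Of 16 genes for CTCF, its germ cell paralog Ctcfl and cohesin with its loaders and releasers, 15 had a 5′ peak in all 6 libraries, among them Ctcf (median rank 11%), Ctcfl (38.8%) and the releasing factor Wapl (1.54%), and Rad21 had none. Of 14 genes for DNA methylation and silencing, 12 were called in all 6 libraries, including Smchd1 (4.59%), which encodes a silencing protein known to act on these clusters, and Setdb1 (3.91%), an H3K9 methyltransferase. Dnmt3a had no peak, and Dnmt1, the maintenance methyltransferase, was called in 2 S7KO libraries and 1 WT library. For these genes and Rad21 the 5′ end is the outermost annotated start, which may not be where transcription begins. A missing peak there does not mean that their promoters were closed. Of 12 genes for partners and proteases of protocadherins, 11 were called in all 6 libraries, including the receptor tyrosine kinase gene Ret (11.9%), itself a spermatogonial marker, and Celsr3 had none.

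Other families gave a scale for these counts. Of 12 non-clustered protocadherins, which lie alone in the genome, 11 were called in all 6 libraries and Pcdh9 in none, with median ranks from 5.05% for Pcdh17 to 83.5% for Pcdh12. Of 19 classical cadherins, 15 were called in all 6 libraries, and Cdh19 was missed in 1 S7KO library. Of the 39 Hox genes, another family in clusters, 31 were called in all 6 and Hoxa3, Hoxa6, Hoxd10 and Hoxd11 in some. Of 229 vomeronasal type 1 receptor genes, a clustered family of sensory neurons, 2 were called in all 6 and 225 in none.

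Members resemble each other in sequence, and the study kept only uniquely mapped reads, so accessible sequence shared by several genes would be missed. In the first exons of GENCODE's canonical transcripts, which do not include the sequence upstream, the share of 50 bp words that occur in another member's first exon had a median of 14.8% in the Pcdha cluster, 4.27% in the Pcdhb cluster and 0.601% in the Pcdhg cluster. Pcdha7, with no 5′ peak, had the highest share of the Pcdha genes, at 23.4% and at 39.7% over its first 1000 words. In the Pcdhb cluster the median was 3.48% for the 10 genes called in every library, 3.71% for the 7 called in some and 7.21% for the 5 called in none. The order did not hold gene by gene. Pcdha11 shared 23.8% of its first 1000 words and was called in all 6 libraries. Pcdhb16 and Pcdhgc5 shared 0 of theirs and were called in none. The GENCODE exons of Pcdhb21 (4705 bp) and Pcdhb22 (6609 bp) are longer than their RefSeq genes (2.71 and 3.07 kb). These exons may overlap, which would count the same sequence as shared. The shares of Pcdhb22 and of Pcdhb21 (11.3%), among the 5 genes called in none, may thus be too high. This was not checked. The part of unique mapping in the missing calls was not tested, nor was that of sequence differences between the 129S1/Sv mice and the mm10 reference.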

How the data were processed

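Per the study's methods and the labels, the authors trimmed reads (Trim Galore 0.6.6), aligned them to mm10 (Bowtie2 2.4.4.1), kept unique non-duplicate reads, removed mitochondrial reads, shifted ends for Tn5, filtered fragments by length and called broad peaks in each library with MACS2 2.2.5 (broad cutoff 0.1). The deposited lists give each peak a score, a fold enrichment, and the −log10 of its p-value and q-value. Ranks used the deposited −log10 q, and the largest q-value was 0.0983. The methods give a fragment range that starts above nucleosome-free length, but the study's text names nucleosome-free fragments, so which of them the deposited peaks rest on is unsettled. Depth was unknown, so its precision could not be given. Counts and coverage per peak were not analysed here.

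Gene starts and ends came from RefSeq (GRCm38.p6) and strands from GENCODE vM39 by symbol, which placed 19666 of 21887 protein-coding 5′ ends (89.9%). GRCm39 coordinates were not used. The 5′ end is the outermost annotated start and may not be where transcription begins. A gene was called where a peak overlapped 1 kb on either side of it. Overlapping or touching peaks were merged into 158725 regions.

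S7KO and WT counts were compared with exact two-sided permutations (all 20 ways to divide the 6 libraries evenly), with Benjamini-Hochberg adjustment over 6 tests (Python 3.11.15, NumPy 2.4.6, SciPy 1.17.1), and the counting was tested on simulated data. As nothing in the labels ties libraries to separate animals, p-values measure the spread between libraries. Members and gene lists were chosen with earlier results of these data known. Named genes were the C-type genes, the first and last of each cluster, those called in 1 to 5 libraries or in none, and in each cluster the best and worst ranked called in all 6. Named regions were the widest away from 5′ ends in each cluster. Pcdha6, Pcdhga4, Pcdhga7, Pcdhgb1 and the other genes and regions were named after their values were seen. Alternatives were windows of 500 bp and 3 kb, stricter q, peak midpoints, lists cut to equal length, other flanks, a replicate block and omission of each library. No sequences are printed.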

Additional observations from a re-analysis of the deposited data

How the results depend on the processing

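Of 83 alternative values of the 6 tested differences (S7KO minus WT), 60 kept their direction, 20 reversed and 3 showed no difference, and the lowest p was 0.2 by the exact permutation test. The 60 include the replicate block for each of the 6 results, which cannot change a difference. With a 3 kb window the difference in called 5′ ends was −0.667 over all clusters, −0.333 for Pcdha and 0 for Pcdhg. For Pcdhb it was 1.0 with a 500 bp window, 1.67 and 0.333 at a −log10 q of at least 2 and 3, and 0.333 with peak midpoints. With lists cut to equal length it was −0.667 over all clusters, −0.667 for Pcdhg and −0.685 kb for covered length. With replicates 1 and 4 only, an alternative chosen after seeing the data, it was −2.00 over all clusters, −1.0 for Pcdha, 0 for Pcdhg, −0.500 peaks and −9.18 kb. Leaving out each library in turn gave −2.33 to 3.17 over all clusters, −0.667 to 1.83 for Pcdha, −1.67 to 0.833 for Pcdhb, 0 to 0.500 for Pcdhg, −1.50 to 5.5 peaks and −7.37 to 7.87 kb, and the lowest value of each came without WT replicate 2. The cause was not tested. Title numbers were shared between genotypes (a second label numbers the libraries 2, 3 and 4 in the same order, which joins the same libraries). The deviations of same-numbered libraries correlated at 0.106, −0.00239 and 0.142 for numbers 1, 2 and 4. Pairs of an S7KO and a WT library with unlike numbers gave −0.171 to 0.0757. All of these values are small and do not settle whether the numbers pair the libraries. The main tests treated the libraries as unpaired. A replicate block kept the differences at 1.0, 1.0, −0.333 and 0.333 genes, 3.0 peaks and 1.85 kb, as it must when every pair is complete. Only its p could differ, with exact sign-flip p of 0.750 to 1.0. The smallest possible p was 0.25, so the block could change no call. Depth, unknown here, limits what a missing peak can show.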
